A study of Homo sapiens with 2 samples.

Results

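The antioxidant genes that answer to the transcription factor NRF2 were examined in MKN74 and MKN45, established human gastric cancer cell lines, after knockdown of the histone methyltransferase SET7/9. The genes were NQO1, HMOX1, GCLC, GCLM, TXNRD1, SRXN1, SLC7A11, AKR1B10, AKR1C1 and AKR1C3. Every gene probe filed under one of these names was taken, which gave 13 probes for 10 genes, out of 34127 gene probes for 25940 gene names on the array. In each cell line, cells transfected by electroporation with 50 nM SET7/9 siRNA were set against cells of that line given negative control siRNA, 48 hrs after transfection. RNA of the SET7/9 siRNA cells was labelled with Cy5 and RNA of the control cells with Cy3, and both were hybridised to 1 two-colour array per cell line. All cells were grown in RPMI1640 with 10% FBS, and the labels give no other treatment or genotype. There was no dye swap and no replicate array, so that a dye effect and a knockdown effect cannot be told apart for a single probe, and no p-value is given for a single array. The text used here does not say which SET7/9 siRNA was hybridised.

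NRF2, encoded by NFE2L2, is held at a low level by KEAP1, which hands it to a ubiquitin ligase. When oxidants or electrophiles modify KEAP1, NRF2 accumulates, enters the nucleus with a small MAF partner and binds antioxidant response elements in the promoters and enhancers of its targets, while BACH1 competes for the same elements. The targets make glutathione, reduce thioredoxin and oxidised peroxiredoxins, detoxify quinones and carbonyls and break down haem, and the aldo-keto reductases are among the targets most often raised in tumours with an active pathway.

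The aldo-keto reductases are close paralogues, so the sequences of their probes decide what each value can stand for. AKR1C1 had 3 probes, here numbered by position. Probe 1 and probe 3 (chr10:5019910-5019969) are each annotated to transcripts of 2 genes, AKR1C1 and AKR1C2, and their values cannot be assigned to one of them. No transcript in the annotation of probe 2 matched the RefSeq gene table. AKR1B10 had 2 probes, both annotated to that gene alone, and AKR1C3 had 1. The stretches below are given 5′ to 3′ in the sense of the RNA. The capitals in AKR1C1 probe 1 mark its first ATG, and the first 30 bases are shown of both AKR1B10 probes.
AKR1C1 probe 1 (chr10:5005636-5005695, bases 2 to 60): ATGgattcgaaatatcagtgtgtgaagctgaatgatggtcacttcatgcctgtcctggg
AKR1C3 (chr10:5147789-5147848): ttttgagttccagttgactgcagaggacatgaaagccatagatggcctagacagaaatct
AKR1B10 probe 1 (chr7:134225799-134225858): atcctctcatttggaagactatcccttcga
AKR1B10 probe 2 (chr7:134225939-134225998): atcacagtgaacttagtcctgttatagacg

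The GCLM probe (chr1:94352810-94352869) stood apart from the other 12 in its sequence. Runs of at least 15 bases of it, on either strand, occurred in 18 probes of other genes, and its commonest 15-base run occurred in 9 of them. AKR1C1 probe 1 shared such a run with 1 probe of another gene, and the other 11 probes with 0. The comparison was with other probes of the array only, and matches to transcripts of paralogues were not looked for. The part that a shared sequence plays in the GCLM value was not tested.

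Coordinates of probes are those of the array design on GRCh37, and whether a probe lies in an exon, an intron or a UTR was not determined here. The siRNA target was checked first. SETD7, which encodes SET7/9, gave 368.5 signal units in control cells and 90.1 in SET7/9 siRNA cells of MKN74 at its probe at chr4:140427692-140427751, a log2 ratio of −2.03 with a scanner error of 0.28. In MKN45 the same probe gave 197.3 and 51.2, a log2 ratio of −1.95 with an error of 0.28. A second SETD7 probe, at chr4:140453844-140453903, gave log2 ratios of 0.24 and −0.23 in MKN74 and MKN45, so that it did not show the knockdown. The control channel was well above background at 54.7% of gene probes in MKN74 and 59.7% in MKN45, the SET7/9 siRNA channel at 60.4% and 66.6%, and 0 gene spots were saturated. The epithelial markers EPCAM, CDH1, KRT8, KRT18 and KRT19 were well above background in both channels of both arrays. So were CD14, CD79A, COL1A1 and CDH5, while COL1A2, COL3A1 and DCN were in neither channel of either array. CD3E and VWF were not above background in the control channel of either array. PTPRC was above background in both channels in MKN45 but not in MKN74, and PECAM1 in both channels of neither array.

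The first question was whether SET7/9 knockdown moved the NRF2 targets in either line. Ratios are log2 of SET7/9 siRNA over control siRNA, with the error that the scanner software gives for 1 spot, and a probe counted as past the cutoff at 1.5-fold, or 0.58 on the log2 scale. Each value comes from RNA of a whole culture, in which fewer expressing cells and less RNA per cell cannot be told apart. Of the member probes 12 in MKN74 and all 13 in MKN45 were well above background in at least 1 channel. In MKN74, 1 of 12 probes was past the cutoff on the lower side, where 1.76% of all 20674 probes kept were, and 0 of 12 were on the higher side, where 3.78% of all probes were. In MKN45, 0 of 13 were past it on the lower side and 1 of 13 on the higher side, against 1.97% and 4.81% of all 22830 probes kept. The probes past the cutoff were AKR1B10 probe 1 in MKN74 and AKR1C1 probe 2 in MKN45.

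Glutathione synthesis starts with cystine uptake by the xCT antiporter, of which SLC7A11 is the transport subunit, and with glutamate-cysteine ligase, whose catalytic subunit is GCLC and whose modifier subunit is GCLM. GCLC (chr6:53362197-53362256) gave signals of 6648 in control and 6170 in SET7/9 siRNA cells of MKN74, and 2414 and 2155 in MKN45. Its log2 ratios were −0.11 ± 0.20 and −0.16 ± 0.20 (scanner error, 1 array each), so that both lines were slightly below 0 and within 1 error of it. GCLM gave 2577 in control and 2529 in SET7/9 siRNA cells of MKN74, a log2 ratio of −0.03 ± 0.20, and 2376 and 2772 in MKN45, a log2 ratio of 0.22 ± 0.20. The ligase subunits were thus both below 0 in MKN74, within their errors, and had ratios of opposite sign in MKN45. With normexp background correction and loess in place of the scanner's ratio, the GCLM ratio in MKN74 turned to 0.08. SLC7A11 (chr4:139085433-139085492) gave 8929 and 9024 in MKN74, and 421.5 and 479.8 in MKN45, log2 ratios of 0.02 ± 0.20 and 0.19 ± 0.20. In MKN74 that sign also turned with normexp and loess, to −0.09.

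Thiol repair rests on TXNRD1, the cytosolic thioredoxin reductase, and on SRXN1, sulfiredoxin, which restores over-oxidised peroxiredoxins. TXNRD1 (chr12:104732949-104733008) gave 2667 in control and 2581 in SET7/9 siRNA cells of MKN74, and 249 and 241 in MKN45. The log2 ratio was −0.05 in each line, with errors of 0.20 and 0.21, the closest agreement between the lines among the member probes. SRXN1 (chr20:627563-627622) gave 20012 and 16485 in MKN74, a log2 ratio of −0.28 ± 0.21, and 1667 and 1627 in MKN45, a log2 ratio of −0.03 ± 0.20. Both genes were below 0 in both lines, and only SRXN1 in MKN74 lay more than 1 error from it.

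NQO1 reduces quinones with NAD(P)H and is the customary reporter of NRF2 activity, and HMOX1 is the inducible haem oxygenase, which is also under repression by BACH1. NQO1 (chr16:69744274-69744333) gave 742.9 in control and 592.3 in SET7/9 siRNA cells of MKN74, a log2 ratio of −0.33 ± 0.21, and 570.9 and 513.9 in MKN45, a log2 ratio of −0.15 ± 0.20. HMOX1 (chr22:35790122-35790181) was printed as 10 spots on each array, which gives the spread of repeated spots of the same hybridisation. Control signals ranged over 6608 to 7403 and SET7/9 siRNA signals over 5919 to 6507 in MKN74, so that the channels did not overlap. The 10 spot ratios ran from −0.21 to −0.06, with a mean log2 ratio of −0.16 ± 0.05 (SD over spots, n = 10). In MKN45 the control signals, 939 to 1040, and the SET7/9 siRNA signals, 887 to 940, overlapped at the edge, and the ratios ran from −0.18 to −0.02 with a mean of −0.11 ± 0.05 (SD over spots, n = 10). All 10 spots were below 0 on both arrays, but spots of 1 array are not replicates of the knockdown, and the scanner's error of the ratio, 0.20, is larger than both means.

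The aldo-keto reductases reduce carbonyls with NADPH. AKR1B10 reduces retinal and lipid aldehydes, and AKR1C1 and AKR1C3 act on steroids, AKR1C1 mainly on progesterone and AKR1C3 on androgens and on prostaglandins. AKR1B10 probe 1 gave 40.5 in control and 26.2 in SET7/9 siRNA cells of MKN74, a log2 ratio of −0.63 ± 0.31, and 2097 and 2362 in MKN45, a log2 ratio of 0.17 ± 0.20. AKR1B10 probe 2 gave 15.1 and 18.5 in MKN74, a log2 ratio of 0.29 ± 0.45 with the control channel not well above background, and 2350 and 2714 in MKN45, a log2 ratio of 0.21 ± 0.20. The AKR1B10 probes therefore gave like ratios in MKN45, where both were bright, and ratios of opposite sign in MKN74, where both were dim. A further probe filed under AKR1B15 (chr7:134262468-134262527), whose annotation lists a transcript of AKR1B10 too, gave 51.3 in control and 32.5 in SET7/9 siRNA cells of MKN74 and 1340 and 1402 in MKN45, log2 ratios of −0.66 ± 0.26 and 0.07 ± 0.20. That probe was looked up after the values were seen.

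AKR1C1 probe 1 gave 198 in control and 153 in SET7/9 siRNA cells of MKN74, and 1202 and 1388 in MKN45, log2 ratios of −0.38 ± 0.21 and 0.21 ± 0.20. Probe 3 gave 513 and 380 in MKN74, and 4673 and 5335 in MKN45, log2 ratios of −0.43 ± 0.21 and 0.19 ± 0.20. These probes, which read AKR1C1 and AKR1C2 together, differed by less than their errors in each line. Probe 2 (chr10:5011936-5011995) was not well above background in either channel in MKN74, with signals of 3.4 and 4.3, and gave 28.5 and 43.8 in MKN45, a log2 ratio of 0.62 ± 0.27 that neither of the brighter probes shared. AKR1C3 gave 722 and 711 in MKN74, a log2 ratio of −0.02 ± 0.20, and 10011 and 13101 in MKN45, a log2 ratio of 0.39 ± 0.21, the highest MKN45 ratio after that of AKR1C1 probe 2. With normexp and loess the AKR1B10 probe 1 ratio in MKN74 shrank to −0.09 and the AKR1C1 probe 2 ratio in MKN45 to 0.26. With these settings 0 member probes were past the cutoff in either line. Few genes of the whole array were past it either, 38 lower and 38 higher of 15989 in MKN74. In MKN45 there were 15 lower and 27 higher of 17543, so the count of 0 says little about the members.

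**Figure D1:**
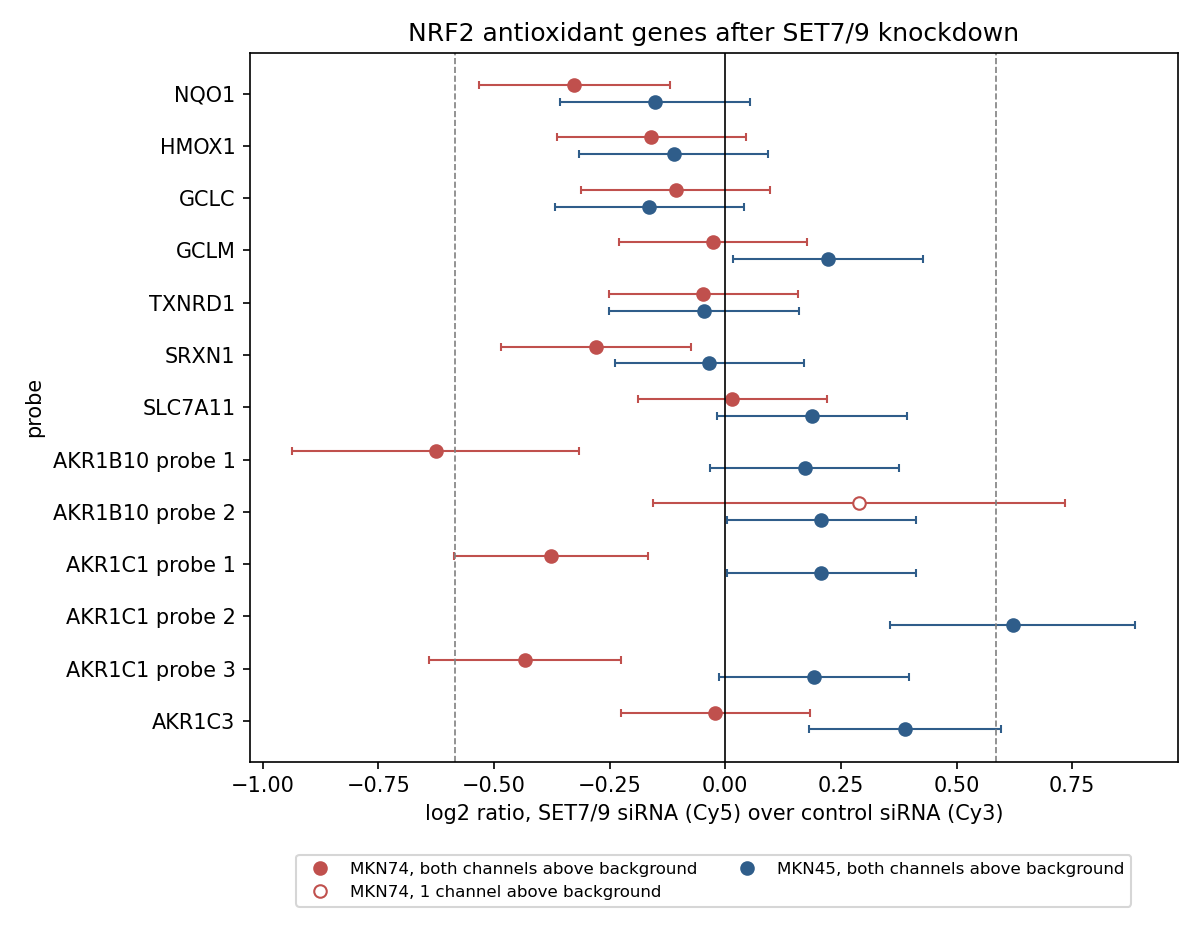
The log2 ratio of SET7/9 siRNA over control siRNA (x axis) is plotted for each member probe (y axis), with MKN74 in red and MKN45 in blue; bars are the scanner's error of 1 array, dashed lines the 1.5-fold cutoff, and an open circle a probe with only 1 channel well above background. AKR1B10 probe 1 in MKN74 (−0.63) and AKR1C1 probe 2 in MKN45 (0.62) are the points past the dashed lines, and AKR1C1 probe 2 has no MKN74 point because neither channel was above background.

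Over the member probes as a whole, 10 of 12 were below 0 in MKN74, with a median of −0.13, and 5 of 13 in MKN45, with a median of 0.19. Some of these probes read the same gene. With 1 value per gene, from the brightest probe, 9 of the 10 genes were below 0 in MKN74 and 5 in MKN45. Over all genes kept, 7810 of 15989 were below 0 in MKN74 and 8211 of 17543 in MKN45. The medians of the 10 genes were −0.13 and 0.07, beside 0.01 in both lines over all genes kept. These counts and medians are descriptions of 2 arrays. In limma, with both arrays as 2 samples of the knockdown and 1 residual degree of freedom, 0 of 12 member probes had an adjusted p under 0.05, and their adjusted p-values ran from 0.37 to 0.83. The percent called over all 19595 probes in that fit was 0, with 2569 probes at an unadjusted p under 0.05, 1 of them a member probe, AKR1B10 probe 2. By normexp and loess limma called 1708 of 19595 probes over all and 1 of 12 member probes, which are nearly the same share. That member was GCLC, with a mean log2 ratio of −0.22 and an adjusted p of 0.046. On the deposited table of log2 ratios limma called 0 of 17384 probes.

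The design also sets one cell line against the other. The difference between the knockdown ratios, MKN45 minus MKN74, was 0.80 (error 0.37) for AKR1B10 probe 1, 0.59 (0.29) and 0.62 (0.29) for AKR1C1 probes 1 and 3, and 0.41 (0.29) for AKR1C3. Of the 11 member probes measured in both channels on both arrays, 3 had a ratio at least 0.58 higher in MKN45 than in MKN74, as had 1.6% of all 17362 such probes, and 0 had a ratio at least 0.58 lower, as had 0.927%. The 3 were AKR1B10 probe 1 and AKR1C1 probes 1 and 3, with AKR1C1 probe 1 right at that size, and the last pair are annotated to the same genes, so that they do not count as separate genes. The ratio had opposite signs in the lines for 5 of the 11, against 34.1% of all probes. With normexp and loess the differences of these probes fell under 0.58, to 0.34, 0.51 and 0.55, so that the count of 3 became 0, and with median centring AKR1C1 probe 1 came to 0.58 just under the limit, which left 2. With 1 array per line the differences were not tested. The ratios of NQO1, HMOX1, GCLC, GCLM, TXNRD1, SRXN1 and SLC7A11 differed between the lines by at most 0.25.

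**Figure D2:**
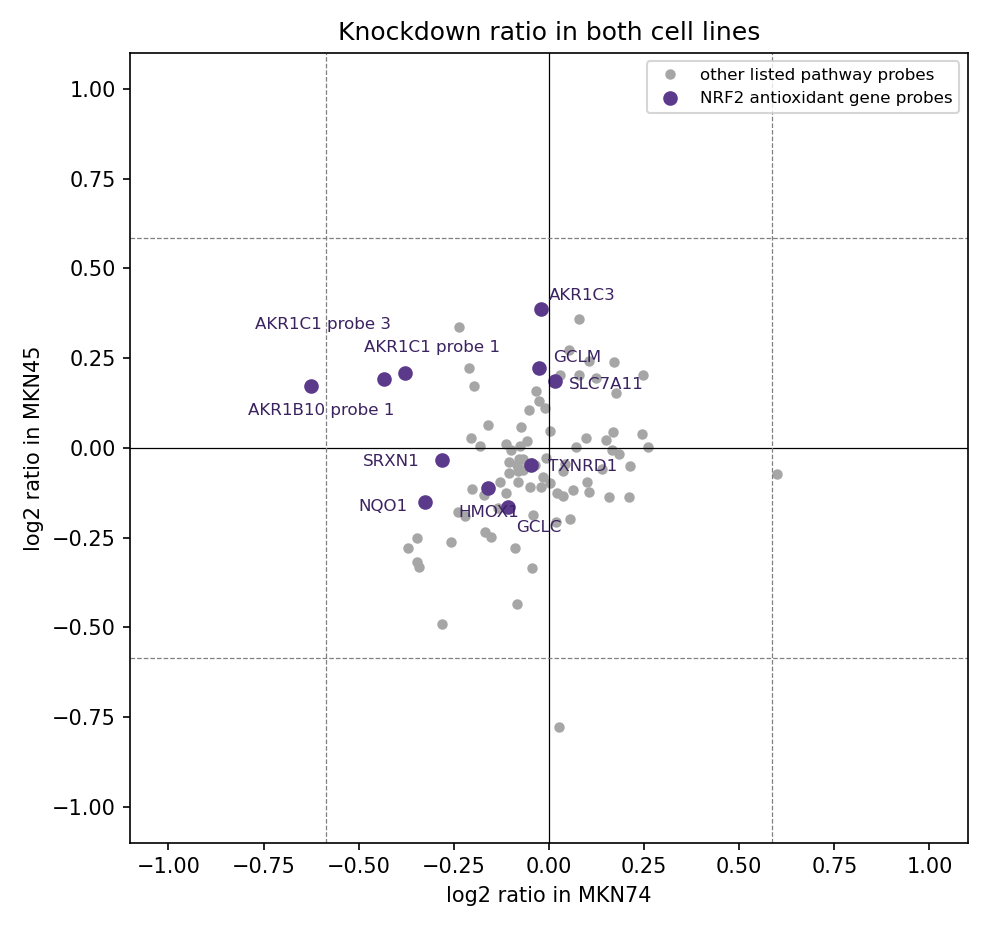
The log2 ratio in MKN74 (x axis) is plotted against the log2 ratio in MKN45 (y axis) for the 11 member probes measured in both channels on both arrays (purple, named). Grey points are 83 such probes of the other listed genes, of the pathway or linked to it, and dashed lines mark 1.5-fold. AKR1B10 probe 1 and AKR1C1 probes 1 and 3 lie in the upper left, lower in MKN74 and higher in MKN45, while NQO1, HMOX1, GCLC, TXNRD1 and SRXN1 lie in the lower left.

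For every member but NQO1 and GCLM, the control levels of the lines differed by over 2-fold, which no knockdown ratio of a member reached. Levels are log2 signals with both arrays put on 1 scale by quantiles of their average intensity, and each line has 1 control sample, so the differences carry no test. Over all 17414 probes above background in Cy3 on both arrays, the middle 90% of differences, MKN45 minus MKN74, ran from −2.14 to 1.91 with a median of −0.13, which became 0.14 when each array was scaled to its 75th percentile. Of the 11 member probes measured, 4 were at least 1.5-fold higher in MKN45, where 23.9% of all probes were, and 5 at least 1.5-fold higher in MKN74, where 32.5% were. At 4-fold, where 4.5% of all probes were higher in MKN45 and 6% in MKN74, 4 of 11 were higher in MKN45 and 4 in MKN74. The 1.5-fold counts of 4 and 5 were the same under every scaling tried and in the Cy5 channel.

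The members of cystine uptake, thiol repair and haem breakdown, and GCLC, were higher in MKN74. Other listed genes did not all follow. Of 5 for iron and haem, 2 were at least 1.5-fold higher in MKN74 and 1 in MKN45. Of 3 for thioredoxin and peroxiredoxins these counts were 2 and 0, and of 10 further antioxidant enzymes 1 and 3. SLC7A11 had a control level of 12.98 in MKN74 and 8.83 in MKN45, a difference of −4.15, or 17.8-fold. SRXN1 stood at 14.23 and 10.85, 10.4-fold higher in MKN74. TXNRD1 was 9.25-fold higher in MKN74, a difference of −3.21. HMOX1 was 5.73-fold higher in MKN74 (12.60 and 10.08), and GCLC 2.16-fold higher (12.52 and 11.41). The errors of these differences were 0.20 to 0.21 on the log2 scale. In cells given SET7/9 siRNA, read in the other dye, the differences were −3.98 for SLC7A11, −3.14 for SRXN1, −3.21 for TXNRD1, −2.47 for HMOX1 and −1.17 for GCLC, so that the order of the lines was the same in both channels.

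The aldo-keto reductases among the members ran the other way. AKR1B10 probe 1 had a control level of 5.59 in MKN74 and 11.20 in MKN45, 49.1-fold higher in MKN45, and probe 2, whose MKN74 control was not well above background, was at least 120-fold higher, with the dim signal taken at its own value or, where that was higher, at the array's lowest signal well above background. AKR1C1 probes 1 and 3 were 6.70-fold (7.64 and 10.38) and 11.1-fold (8.90 and 12.37) higher in MKN45, and AKR1C3 was 16.2-fold higher (9.35 and 13.37). The AKR1B15 probe that lists AKR1B10 was 25.1-fold higher in MKN45. AKR1C1 probe 2 allowed only a bound of at least 1.05-fold. In SET7/9 siRNA cells the differences were larger still for the measured probes, 6.41 for AKR1B10 probe 1, 3.33 and 4.10 for AKR1C1 probes 1 and 3, and 4.43 for AKR1C3, on the log2 scale. With normexp, loess and the same scaling between arrays, the AKR1B10 difference fell from 5.62 to 4.43 for probe 1 and from 7.12 to 4.95 for probe 2. The bound of 120-fold for probe 2 is thus one on the scanner's signals, and it was not reached with normexp and loess.

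NQO1 and GCLM did not separate the lines. NQO1 had a control level of 9.40 in MKN74 and 9.29 in MKN45, a difference of −0.11 ± 0.20, and in SET7/9 siRNA cells the sign turned, to 0.07. GCLM stood at 11.16 and 11.39, a difference of 0.24 ± 0.20 in control cells and 0.49 ± 0.20 in SET7/9 siRNA cells. Levels are compared here between cell lines at the same probe only, since the signals of different probes are not on a common scale.

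**Figure D3:**
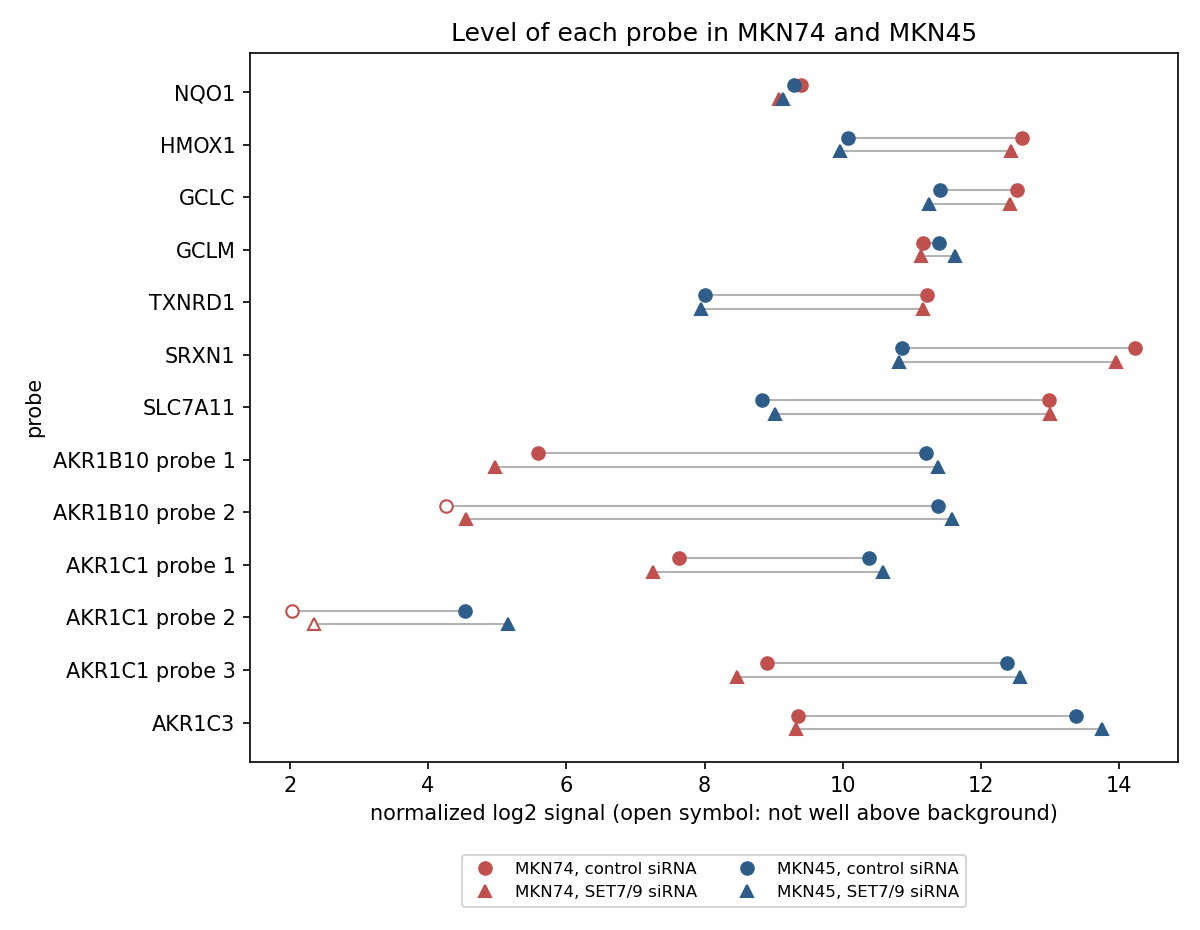
The normalized log2 signal (x axis) of each member probe (y axis) is plotted in control siRNA cells (circles, Cy3) and SET7/9 siRNA cells (triangles, Cy5) of MKN74 (red) and MKN45 (blue), 1 array per line, with open symbols where the channel was not well above background. SLC7A11, SRXN1, TXNRD1, HMOX1 and GCLC are higher in MKN74, all AKR1B10, AKR1C1 and AKR1C3 probes are higher in MKN45, and the symbols of NQO1 and GCLM lie close together in both lines.

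The regulators of the pathway were read next. NFE2L2 was dim, with 26.0 in control and 20.1 in SET7/9 siRNA cells of MKN74, a log2 ratio of −0.37 ± 0.34, and neither channel was well above background in MKN45. KEAP1 gave 1963 in control and 1856 in SET7/9 siRNA cells of MKN74 and 1431 and 1341 in MKN45, log2 ratios of −0.08 and −0.09, and its control level differed between the lines by −0.14. BACH1 gave 1425 and 1605 in MKN74 and 830 and 979 in MKN45 at its brighter probe, log2 ratios of 0.17 ± 0.20 and 0.24 ± 0.21, and 0.20 ± 0.36 in MKN45 at its dimmer probe, which was not above background in MKN74. Messenger RNA of KEAP1 and of BACH1 at its brighter probe was therefore within 1.5-fold between treatments and between the controls of the lines, and the NFE2L2 ratio was measured in MKN74 alone. The control level of NFE2L2 was at least 2.66-fold higher in MKN74, as a bound from 1 dim probe with MKN45 not above background. The difference of its printed signals was −2.12 with an error of 0.64 on the log2 scale. Protein levels and mutations of these regulators are not read by the arrays.

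Other genes, of the pathway or linked to it, were taken from lists of regulators, glutathione and thioredoxin enzymes, NADPH supply, iron and haem, detoxification and further antioxidant enzymes. A list of the amino acid response, which ATF4 drives, was added. Of 76 genes listed, 74 were kept in MKN74 and 73 in MKN45. With 1 value per gene, the cutoff was passed in MKN74 by 0 on the lower and 1 on the higher side, and in MKN45 by 2 on the lower and 0 on the higher side. Over all genes kept the shares were 1.73% and 3.82% in MKN74, and 1.91% and 4.67% in MKN45, and the counts of the listed genes lay near or under them. The gene past the cutoff in MKN74 was ABCC3, a conjugate exporter, at 0.67 ± 0.44 with its control channel not well above background. GGT1, which cleaves extracellular glutathione, had a probe at 0.60 ± 0.25 in MKN74 while its brighter probe was at 0.21 ± 0.21. In MKN45 the genes past the cutoff were ALDH3A1 and CHAC1. ALDH3A1, an aldehyde dehydrogenase, gave 3455 in control and 2069 in SET7/9 siRNA cells of MKN45 at one probe and 1800 and 923 at the other, log2 ratios of −0.74 ± 0.21 and −0.96 ± 0.22. Its control channel was not above background in MKN74 at either probe. CHAC1, which degrades glutathione and is induced by ATF4, gave 422 and 246, a log2 ratio of −0.78 ± 0.22, and −0.43 ± 0.39 at its dimmer probe.

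None of the genes listed for the supply of NADPH to these enzymes passed the cutoff in either line. In MKN74 6 of 6 had a ratio below 0, with a median of −0.23, where 7810 of all 15989 genes were below 0, and in MKN45 5 of 6, with a median of −0.18, where 8211 of 17543 were. ME1, malic enzyme, was at −0.37 in MKN74 and −0.28 in MKN45. FTL, the ferritin light chain, was at −0.21 and −0.20 at its probes in MKN74 and at 0.22 and 0.17 in MKN45. Every one of these ratios was under 2 times its error, and the genes were picked for mention after their values were seen.

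Control levels were also split by function. The list of genes of the ATF4 amino acid response, which ATF4 drives when amino acids run short and of which SLC7A11 is a known target too, had all 12 of 12 measured genes at least 1.5-fold higher in MKN74, with a median difference of −2.46 and 8 at least 4-fold higher. Over all 13637 genes measured, 31.5% were at least 1.5-fold and 6.01% at least 4-fold higher in MKN74, with a median of −0.10. TRIB3, a pseudokinase induced by ATF4, was at −5.19, PHGDH, the first enzyme of serine synthesis, at −3.75 and CHAC1 at −5.29, beside −4.15 for SLC7A11. Whether ATF4 plays a part in the SLC7A11 difference was not tested. Single genes of the other lists lay far to either side. GPX2, the gastrointestinal glutathione peroxidase, was at 6.59 and AKR1B1, a further aldo-keto reductase, at 6.71, both far higher in MKN45, while MAFF, a small MAF protein (−3.24), OSGIN1 (−3.90) and FTL (−2.38) were higher in MKN74. These genes were named after their values were seen.

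**Figure D4:**
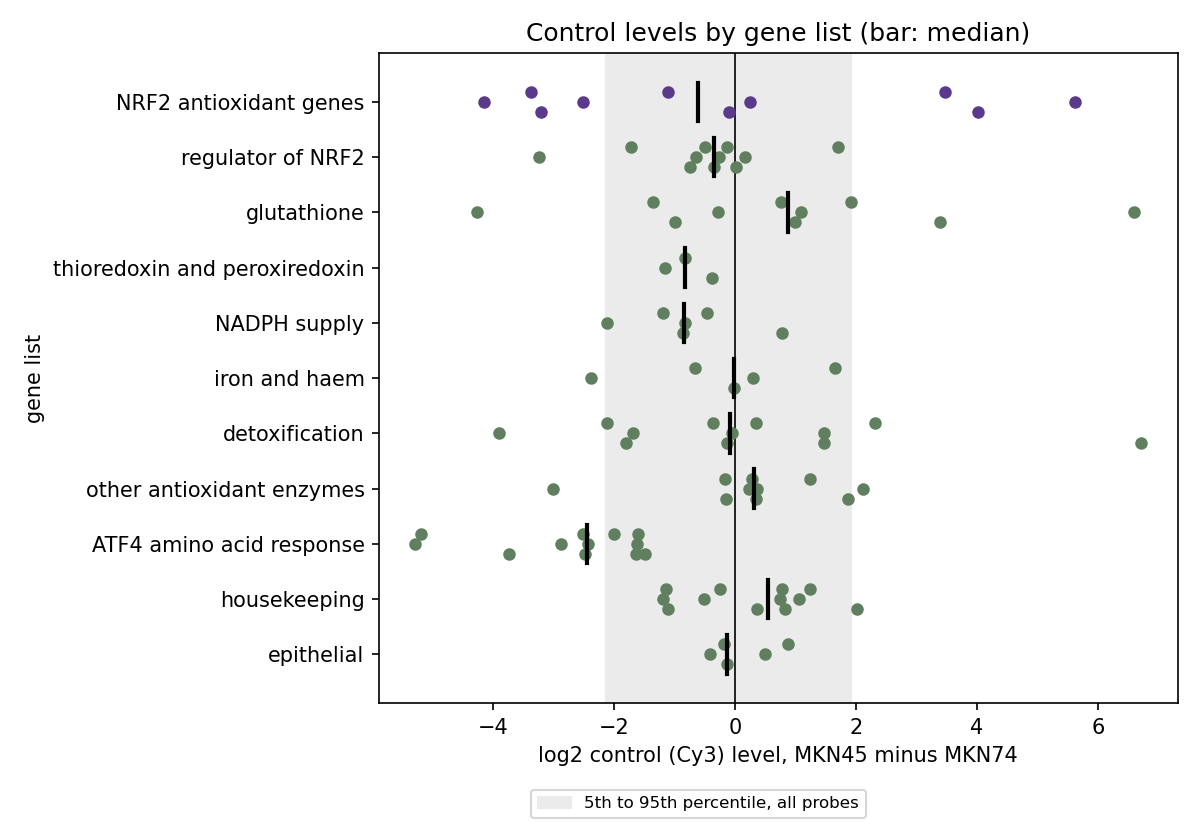
The difference of the log2 control level, MKN45 minus MKN74 (x axis), is plotted for each gene above background in both controls (1 probe per gene, the brightest), by list (y axis), with a bar at each list's median and in grey the range from −2.14 to 1.91 that holds the middle 90% of all probes. Of the 10 member genes 7 lie outside the grey range, 4 to its left and 3 to its right, and all 12 genes of the ATF4 list lie left of 0.

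Promoters were searched for the core of the antioxidant response element, TGACNNNGC, on both strands, in the 250 bases before to 50 after each RefSeq start site (GRCh38.p14). Of 35116 such windows, 13.3% hold it. There were 9 windows for 7 of the 10 members, while HMOX1, SLC7A11 and AKR1B10 had no window to search. The core was found in windows of GCLM and TXNRD1, the latter at separate start sites. These are genes, whereas the 13.3% is a share of windows. The stretches that hold it upstream of the start are given 5′ to 3′ on the strand of the gene, with the core in capitals, and a further TXNRD1 match that crosses the start is not shown.
GCLM (chr1:93909445-93909474, core on the opposite strand, 26 to 34 bases before the start): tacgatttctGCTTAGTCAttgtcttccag
TXNRD1 (chr12:104215670-104215699, core on the same strand, 91 to 99 bases before the start): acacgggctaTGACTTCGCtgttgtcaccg
TXNRD1 (chr12:104286920-104286949, core on the opposite strand, 94 to 102 bases before the start): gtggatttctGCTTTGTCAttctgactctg
The stricter form TGACTCAGC was in 0.561% of all windows and in 0 of the members' windows. A match says only that the letters are there, and the lack of one that they are not in this window. GCLM and TXNRD1, the members with the core in a searched window, were at −0.03 and −0.05 in MKN74 and at 0.22 and −0.05 in MKN45 after the knockdown.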

How the data were processed

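Total RNA was hybridised to 2 arrays of the Agilent design Human GE 4x44K v2, on 1 slide scanned once, with both dyes on each. The authors deposited the output of Feature Extraction 10.7.3.1 (named in the submitters' processing notes), which holds the linear intensity of each channel, background-subtracted, spatially detrended and dye-normalized, and for each spot the Cy5 to Cy3 log10 ratio with an error and a p-value by an error model of the software. A table of log2 ratios was deposited too. Signals not above background had been replaced by surrogates, and in such spots the ratio is not that of the printed signals.

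Ratios were converted to log2, outlier spots (549 in MKN74, 534 in MKN45) were dropped and repeated spots averaged. Probes entered where either channel was called well above background by the software on 50% or more of the spots. Repeated spots had a pooled SD of 0.087 and 0.099 in MKN74 and MKN45, and the number of arrays limits the precision. Levels were scaled between arrays by Aquantile in limma 3.58.1 (R 4.3.3), and limma with Benjamini-Hochberg adjustment was run over all probes and tested on simulated data. P-values over the arrays measure only the spread between 2 cell lines. Alternatives were normexp (offset 50) with loess, median centring, the deposited table, other filters and cutoffs, a p-value of the ratio under 0.01, other scalings and the Cy5 level.

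The members and gene lists were chosen with earlier results of these data known. Every member was named with all its probes, as were SETD7, NFE2L2, KEAP1 and BACH1, and listed genes past 1.5-fold with both channels above background, at most 6 per list. Probe transcripts were matched to gene symbols through RefSeq accessions of GRCh38.p14, without versions, and the promoters are RefSeq's.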

Additional observations from a re-analysis of the deposited data

Results flagged for a closer look

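Between the cell lines, 5 member probes had knockdown ratios of opposite sign in their only arrays, and these differences were not tested. The difference, MKN45 minus MKN74 on the log2 scale, was 0.80 for AKR1B10 probe 1, 0.59 for AKR1C1 probe 1, 0.62 for AKR1C1 probe 3, 0.41 for AKR1C3 and 0.25 for GCLM. All 5 were lower than control in MKN74 and higher in MKN45. In MKN74 the control signal was 40.5 for AKR1B10 probe 1, and the GCLM and AKR1C3 ratios there, −0.03 and −0.02, were far smaller than their error of 0.20. Of all 17362 probes measured in both channels on both arrays, 5925 had opposite signs.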

How the results depend on the processing

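With normexp and loess, with a 2-fold cutoff, and with a scanner p-value under 0.01 besides the 1.5-fold cutoff, 0 member probes were past the cutoff in MKN74 (1 lower otherwise) and 0 in MKN45 (1 higher otherwise). Over all genes, normexp and loess left 38 lower and 38 higher of 15989 in MKN74, and 15 and 27 of 17543 in MKN45. The 2-fold cutoff left 80 and 214 in MKN74, and 143 and 329 in MKN45. The count of 1 other listed gene higher in MKN74 became 0 with normexp and loess, in the deposited table, with both channels required above background and at 2-fold. The 2 other listed genes lower in MKN45 became 0 at 2-fold. The 3 member probes with a ratio at least 0.58 higher in MKN45 than in MKN74 became 0 with normexp and loess. The limma count of member probes became 1 of 12 with normexp and loess, where 1708 of 19595 probes were called over all. When both channels had to be above background, limma called 2 of 17362 probes over all. The cause of these shifts was not tested, except that a higher cutoff and a stricter filter leave fewer probes by construction. The normexp offset of 50 was larger than both signals of AKR1B10 probe 1 in MKN74 and of AKR1C1 probe 2 in MKN45. SETD7, the siRNA target, also had smaller ratios with normexp and loess. They were −1.36 (MKN74) and −0.99 (MKN45), beside −2.03 and −1.95 by the scanner. Not every ratio shrank, and GCLC in MKN74 was at −0.22, beside −0.11. Among 25 member ratios, 2 changed sign with normexp and loess (GCLM and SLC7A11 in MKN74) and 0 with median centring, which moved ratios by at most 0.014. Of 13 control level differences, 1 changed sign in the Cy5 channel (NQO1) and 0 under other scalings. Saturation removed no spot. Leaving out either array left no residual degree of freedom, so that it gave no test. No paired analysis was possible because each cell line has 1 array, beyond the pairing of both siRNAs on an array that every ratio uses. Dim probes (AKR1B10 in MKN74, AKR1C1 probe 2) limit what the ratios show.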
